A study of Mus musculus with 12 samples.

Results

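Pituitary RNA from adult female mice that had lacked dietary vitamin D around puberty was set against RNA from mice on a normal diet. The samples are 8 of the 12 in the study, chosen by their diet group: peripubertal animals 1 to 4 and control animals 1 to 4. All were females of the inbred C57BL/6J strain, were 2 months old at sampling and are described as biological replicates, with whole glands removed and minced. Control animals ate a normal diet, and peripubertal animals ate a vitamin D-deficient (VD-deficient) diet during the peripubertal stage only. A further 4 animals lacked vitamin D only in early life and are used here to set the spread between animals and for values side by side. No transgene or deletion was involved. The question is which pituitary transcripts differ in adulthood after a shortage limited to the time of sexual maturation.

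Vitamin D acts through its receptor Vdr, a nuclear receptor that binds DNA together with a retinoid X receptor such as Rxra and switches on target genes, among them Cyp24a1, the enzyme that degrades the active hormone. The pituitary releases growth hormone, prolactin, thyrotropin, the gonadotropins and peptides cut from proopiomelanocortin, each from its own cell type. Puberty begins when hypothalamic signals raise gonadotropin release from the gland, and gonadal steroids then act back on it.

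The data are scanned brightness values of a 2-colour Agilent mouse array. Each array carried 2 animals of the same group, the odd-numbered animal in Cy3 and the even-numbered one in Cy5, so the 8 animals fill 4 arrays. Between 57.9% and 67.2% of spots were well above background in the peripubertal samples and between 61.0% and 66.3% in the controls. Spots marked as outliers, which give no value for either animal of an array, made up 3.85% to 5.08% on peripubertal and 1.68% to 1.90% on control arrays. The control arrays shared 1 slide and 1 scan session and the peripubertal arrays another. The early life arrays lay on the same slide and in the same session as the peripubertal ones. The effects of slide and of diet cannot be told apart in these results, also where both deficient groups differ from control in the same direction. The deposited files also disagree on the labels. In the value table of the series, each column headed peripubertal equals a scanner channel filed as early life, and the reverse, while the 4 control columns match no scanner channel. The samples here follow the scanner files as filed. With the files of the other deficient group in their place, 18 genes passed the test instead of 4, and 1 gene was in both sets. The gland was identified by its hormone genes, which were well above background in all 8 samples, whereas 2 of 17 ovary and oocyte markers stayed in the data.

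After peripubertal deficiency 4 of 18767 genes were lower than in control and 0 were higher (limma, adjusted p under 0.05, 0.0213% of the genes tested). The named genes among them were Zfyve9, which holds Smad proteins at early endosomes for TGF-beta receptors, and Tatdn2, of the TatD family of nucleases. The other 2 are transcripts without a gene symbol. At an unadjusted p under 0.05 there were 881 genes (4.69%), of which 302 were higher (1.61%) and 579 lower (3.09%), where 938 would pass by chance. Adjusted p-values come from 1 model over all 12 samples, with diet group and dye as terms and the shared array as a block.

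Zfyve9 is read by 1 probe on the minus strand of chromosome 4 at 108311864 to 108311923 (mm9). The log2 intensities in control animals 1 to 4 were 8.98, 8.71, 8.70 and 8.59. In peripubertal animals 1 to 4 they were 7.23, 7.29, 7.50 and 7.69. Every peripubertal value lay below every control value, with a gap between the groups wider than the spread within either. The fitted log2 difference was -1.32 (SE 0.17, 95% interval -1.69 to -0.94, adjusted p = 0.0450), which puts the peripubertal level at 0.401 of control. The probe was well above background in all 4 control and in 3 peripubertal channels. The size of the Zfyve9 difference depends on the processing, and it ran from -2.23 to -1.0 over the alternative settings described below. Early life animals read 7.74, 8.01, 7.49 and 7.73, also below all controls, with a log2 difference of -1.0 from control (adjusted p = 0.0595). Peripubertal and early life animals differed by -0.31 (adjusted p = 0.323). Both deficient groups are set against the same controls.

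Tatdn2 is read on the plus strand of chromosome 6 at 113660140 to 113660199 (mm9). Control animals 1 to 4 read 8.30, 8.61, 8.45 and 8.14 and peripubertal animals 6.98, 7.10, 7.09 and 7.28. The groups did not overlap, and the peripubertal animals spanned the narrower range. The log2 difference was -1.26 (SE 0.16, interval -1.62 to -0.90, adjusted p = 0.0450). Only 2 peripubertal channels were well above background, against 4 in control, so the low values sit near the lower end of what the array can measure. Over the alternative settings the Tatdn2 difference ran from -2.85 to -0.905. In early life animals the level was 7.26, 7.76, 7.36 and 7.50, a difference of -0.91 from control (adjusted p = 0.0706).

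The transcripts without a symbol were lower as well. TC1711418, read on chromosome 2 at 150232234 to 150232293, stood at 8.92, 9.28, 9.32 and 9.69 in control and at 8.16, 8.18, 8.21 and 8.24 in peripubertal animals. It was well above background in all 8 channels, and its log2 difference was -1.11 (SE 0.15, adjusted p = 0.0450). ENSMUST00000139309, read on chromosome 1 at 154531161 to 154531220, stood at 11.05, 10.05, 12.02 and 10.83 in control. Peripubertal animals 1 and 2 read 6.59 and 6.65, and animals 3 and 4 read 8.30 and 8.02. The groups did not overlap, and the peripubertal values split by array. The log2 difference was -3.60 (SE 0.47, adjusted p = 0.0450). Only 2 peripubertal channels were well above background, against 4 in control, so the probe was kept through the group where it is high and the size of the difference is imprecise. In early life animals it read 6.83, 6.85, 6.79 and 6.89, with no channel well above background, and it was the only one of the 4 genes that also passed against control there (adjusted p = 0.00585). This probe lies diagonal to that of Adam4 on the array, at row 237 and column 83 against row 236 and column 82. Adam4 read 10.70, 9.58, 12.12 and 10.91 in control and 6.78, 6.75, 8.77 and 8.64 in peripubertal animals, so both probes ranked the arrays alike. Adam4 was likewise well above background in 4 control and 2 peripubertal channels, and it did not pass (log2 difference -3.09, adjusted p = 0.201). The part of the shared position in these values was not tested.

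**Figure D1:**
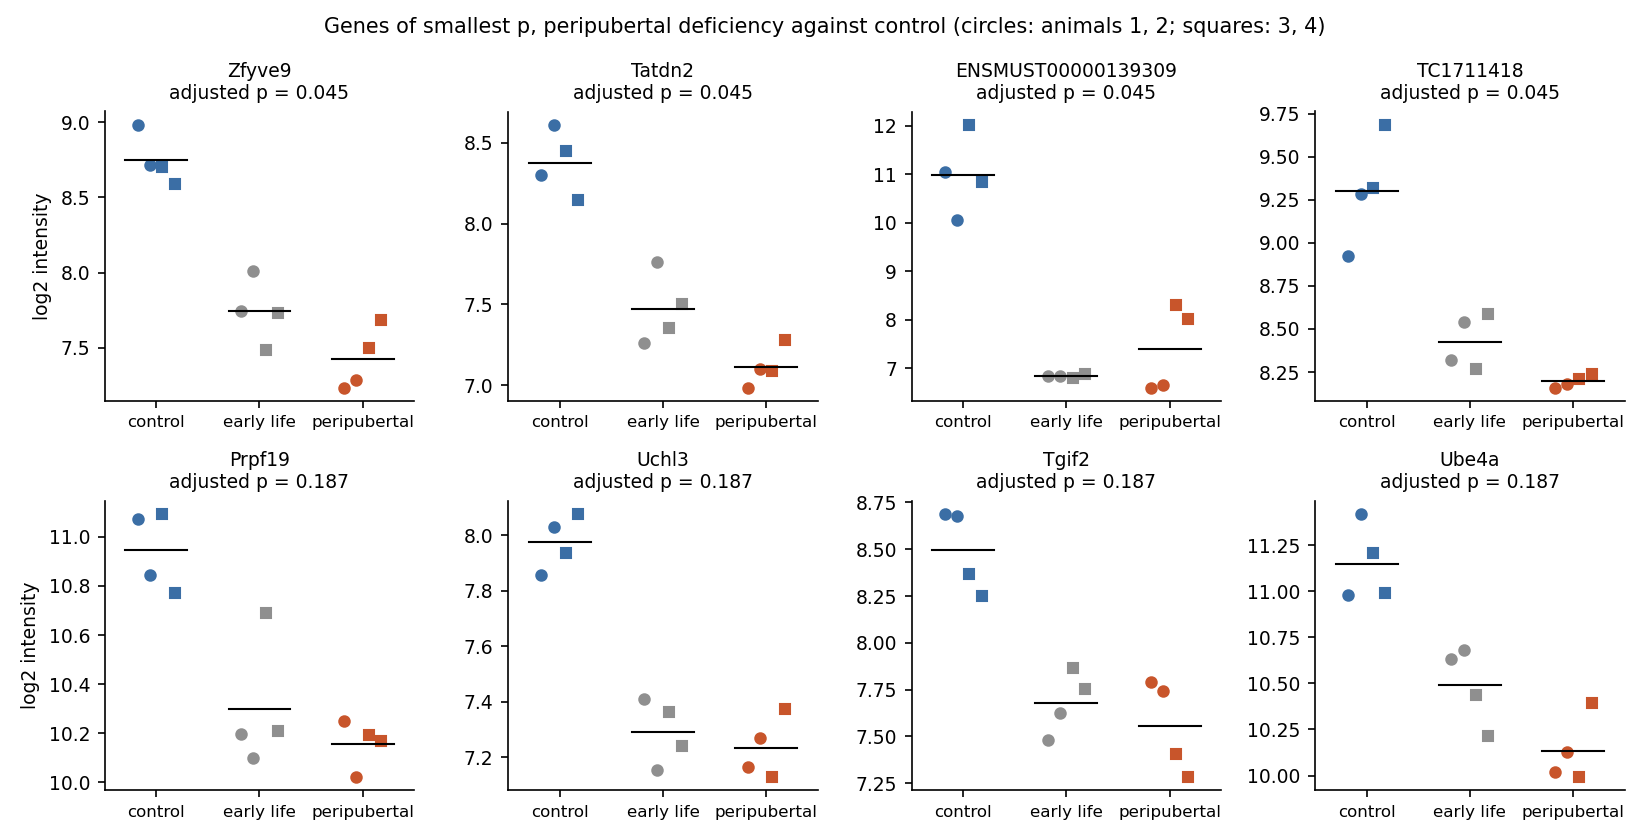
Log2 intensity (y axis) of 8 genes in each animal of the 3 diet groups (x axis), with bars at the group means, circles for animals 1 and 2 of a group and squares for 3 and 4. In the upper panels, which hold the 4 genes that passed, all peripubertal animals lie below all controls, and the early life animals lie below the controls too.

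The calls depend on the other samples and on the processing. Leaving out any 1 of the 12 animals left 0 to 3 genes past the threshold, with 0 in 10 of the 12 fits. Zfyve9 passed in 4 of 24 alternative settings, with adjusted p-values from 0.0103 to 0.854, and Tatdn2 in 6 of 24, from 0.0103 to 0.832, and both were lower in every one. The 24 settings do not count the fits without an early life animal, each of which had 0 genes past the threshold. They do count the fit with the files of the other deficient group.

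The next genes by p did not pass and are given as values. Prpf19, a ubiquitin ligase at the core of the spliceosome, read 11.07, 10.85, 11.09 and 10.77 in control and 10.25, 10.02, 10.19 and 10.17 in peripubertal animals, without overlap (log2 difference -0.79, SE 0.14, adjusted p = 0.187). Ube4a, which extends ubiquitin chains, read 10.98, 11.42, 11.21 and 10.99 against 10.02, 10.13, 9.99 and 10.39 (-1.02, adjusted p = 0.187). Its second probe was well above background in all 8 channels but dim, with group means of 7.45 and 7.53. It differed by 0.0815, so the probes of this gene disagreed, at unlike brightness. Tgif2, a repressor that binds Smad proteins, read 8.69, 8.68, 8.37 and 8.25 against 7.79, 7.74, 7.41 and 7.28 (-0.94, adjusted p = 0.187). Uchl3, which trims ubiquitin, differed by -0.74 (adjusted p = 0.187) and was well above background in only 2 peripubertal channels. Ap2b1, a subunit of the AP-2 adaptor that loads cargo into clathrin-coated pits, read 11.76, 11.57, 11.27 and 11.57 in control and 10.16, 9.86, 9.94 and 10.67 in peripubertal animals, a difference of -1.39 (adjusted p = 0.201). Each of these genes was lower in all 4 peripubertal animals than in any control, but they were picked by small p in this same comparison. Over all 18767 genes the groups did not overlap for 9.24%, with 1039 genes lower. In early life animals the differences from the same controls were -0.65 for Prpf19, -0.66 for Ube4a, -0.81 for Tgif2, -0.68 for Uchl3 and -0.96 for Ap2b1. None of these passed, in a comparison where 0.0977% of genes did.

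Apart from Adam4, the differences of the remaining genes described of the 20 smallest p-values ran from -1.29 to 1.62. Zfp940, a zinc finger gene, read 8.83, 8.92, 9.04 and 8.89 in control and 9.94, 9.76, 9.84 and 9.75 in peripubertal animals (0.90, adjusted p = 0.213), and its second probe, dim in most channels, differed by 0.0199. Foxo1, a forkhead transcription factor, had a difference of 1.62 (adjusted p = 0.270), which rests on controls 1 and 2 (10.80 and 11.23) against 12.69, 12.54, 12.60 and 12.72. A second Foxo1 probe, measured in all 8 animals, differed by only 0.345. Anp32a, a histone-binding phosphatase inhibitor, differed by 1.24 (adjusted p = 0.317) on 1 probe and by -0.0202 on another. Rtl5 at -1.28 and the steroid dehydrogenase gene Hsd17b11 at -1.29 have peripubertal values in animals 1 and 2 only. Hsd17b11 read 11.54 to 11.77 in control and 10.44 and 10.28 in these animals (adjusted p = 0.201). The others were the basement membrane collagen gene Col4a6 at -0.90, Golt1a of Golgi transport at -0.89, A930001C03Rik at -0.85, Olfr1535 at -0.84, Gml2 at -0.77 and Ssmem1 at -0.54.

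For most genes the data leave little room for a large difference. The 95% interval lay within 1 log2 unit of 0, that is within a 2-fold difference either way, for 16616 of the 18767 genes (88.5%). This share ran from 71% to 92.2% with other settings. The median difference over all genes was 0.00691, and 51.4% were positive. Groups did not overlap for 1735 genes (9.24%), of which 696 were higher and 1039 lower. The gap between arrays gives the scale. Over all genes the 2 peripubertal arrays differed by a median of 0.176 log2 units and the 2 control arrays by 0.134, while a peripubertal and a control array differed by 0.142 to 0.184. Gaps over 1 log2 unit were seen for 2.06% of genes between the peripubertal arrays, 1.36% between the control arrays and 1.30% to 2.55% between the groups. Differences between arrays of different diets were thus about as large as those between arrays of the same diet.

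**Figure D2:**
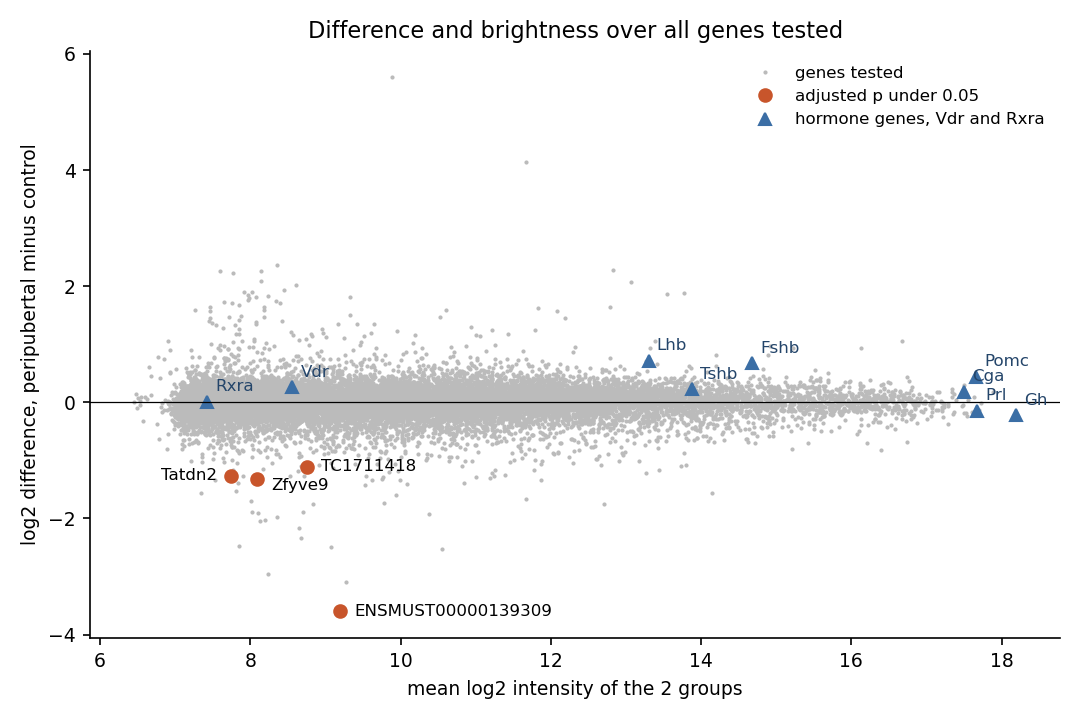
Log2 difference of peripubertal minus control (y axis) against the mean log2 intensity of both groups (x axis) for the 18767 genes tested. The 4 genes past the threshold (orange) lie below 0 in the dimmer part of the range. Blue triangles mark the hormone genes, from -0.22 to 0.72 in the brighter part, and Vdr and Rxra in the dimmer part.

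No hormone gene passed (0 of 7), where 0.0213% of all genes did. Gh, encoding growth hormone, read 18.06, 18.54, 18.29 and 18.31 in control and 17.88, 18.71, 17.53 and 18.17 in peripubertal animals, which overlap (log2 difference -0.22, 95% interval -0.72 to 0.27). Prl, encoding prolactin, read 16.89, 17.79, 18.24 and 18.07 against 17.54, 17.88, 16.99 and 18.01 (-0.14, interval -0.83 to 0.55). For both genes the interval lies within a 2-fold difference. Gh is among the brightest genes, where scaling between arrays acts by rank, and it stood at -0.15 with median centring and at -0.316 with the software's processed signals. Pomc, the precursor of ACTH and melanotropin, read 16.47, 18.46, 16.64 and 18.21 against 17.46, 18.31, 17.57 and 18.20. Its even-numbered animals, labelled in Cy5, were the brighter ones in both groups, and with dye as a term the difference was 0.44 (interval -0.14 to 1.02). Pcsk2, a protease that cuts proopiomelanocortin, was also brighter in the even-numbered animals of both groups and differed by 0.38 (interval -0.08 to 0.84). A second Pcsk2 probe, well above background in all 8 channels, differed by -0.302, with values in only 2 peripubertal animals. The probes of this gene thus disagreed in direction.

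The beta chains of the gonadotropins had the widest intervals of the 7 hormone genes. Lhb, the beta chain of luteinizing hormone, read 13.93, 13.63, 12.92 and 11.28 in control and 13.20, 13.94, 14.47 and 13.02 in peripubertal animals (0.72, interval -0.65 to 2.09). Control animal 4 was the low one. Fshb, the beta chain of follitropin, read 15.24, 14.76, 13.17 and 14.20 against 15.25, 15.06, 15.11 and 14.63 (0.67, interval -0.39 to 1.73), with control 3 the lowest. These intervals leave room for more than a 2-fold higher level. Cga, the alpha chain that these hormones share with thyrotropin, differed by 0.19 (interval -0.67 to 1.04), and Tshb, the beta chain of thyrotropin, by 0.22 (interval -0.70 to 1.15). The stage of the estrous cycle of these females is not given in the sources used here.

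Receptors and partners of the hormone axes gave a few small p-values, none past the threshold over all genes. Inha, the alpha chain of inhibin, read 9.91, 10.14, 10.20 and 10.36 in control and 10.55, 11.07, 10.53 and 10.84 in peripubertal animals, all above the controls (0.60, SE 0.15, adjusted p = 0.557). Ghrhr, the receptor through which the hypothalamus drives growth hormone release, differed by 0.79 (adjusted p = 0.773), from controls 3 and 4 (10.54 and 10.05) and peripubertal values of 11.38, 11.16, 10.90 and 10.94. Esr1, the estrogen receptor, differed by -0.61 on its brightest probe (interval -1.20 to -0.03, adjusted p = 1.00), while another probe well above background in all 8 channels differed by 0.152. Cpe, the carboxypeptidase that trims prohormones, read 16.40, 16.81, 17.07 and 16.46 against 16.21, 16.23, 16.24 and 16.37, without overlap (-0.43, interval -0.85 to 0.00, adjusted p = 1.00). Its 2 other probes, well above background in all 8 channels, differed by 0.103 and 0.163. Pou1f1, the transcription factor of growth hormone, prolactin and thyrotropin cells, read 8.14 in peripubertal animal 1 and 10.38 to 11.27 in the other 7 (-0.91, interval -2.14 to 0.32).

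**Figure D3:**
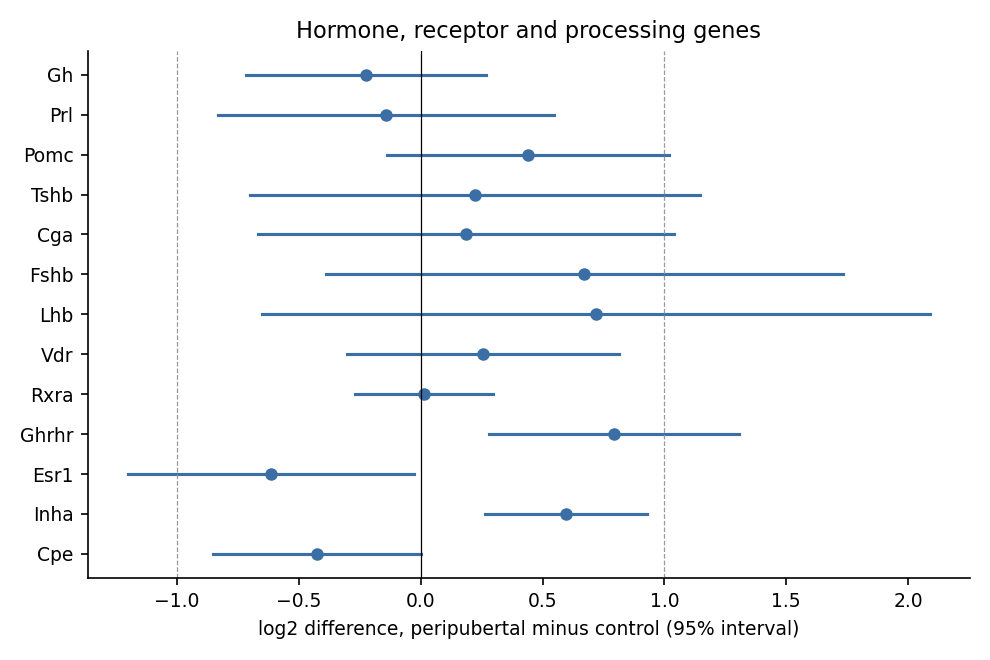
Log2 difference of peripubertal minus control (points) with its 95% interval (lines) for 13 hormone, receptor and processing genes, with dashed lines at a 2-fold difference. The intervals of Gh and Prl stay inside the dashed lines, and those of Lhb and Fshb cross the line on the right.

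Genes of the vitamin D axis showed no common direction in the samples as filed. Vdr read 8.04, 8.18, 9.13 and 8.36 in control and 8.82, 8.69, 8.64 and 8.60 in peripubertal animals (0.26, interval -0.30 to 0.81). The peripubertal animals lay within the range of the controls and close together. In the files of the other deficient group Vdr read 10.09, 9.41, 9.41 and 9.36, all above the controls (1.14 from control, adjusted p = 0.131). Rxra differed by 0.01 (interval -0.27 to 0.30), and Cyp24a1 was too dim to be kept. Of 24 genes of vitamin D signalling, targets and metabolism, 12 were positive and 12 negative with a median of 0.00215, beside 0.00691 over all genes. Of this list 0 passed, beside 0.0213% of all genes. With the files of the other deficient group the median of this list was 0.211. In the samples as filed 1 of them had an unadjusted p under 0.05 (4.17%, beside 4.69% of all genes), Cyp27b1, which makes the active hormone. It read 7.83, 7.83, 7.62 and 7.55 in control and 7.32, 7.46, 7.19 and 7.24 in peripubertal animals (-0.41, adjusted p = 0.830), with only 2 peripubertal channels well above background. Igfbp3, which binds insulin-like growth factors and is a known vitamin D target, differed by 0.61 (interval -0.08 to 1.30). Cyp27a1, which hydroxylates vitamin D at the side chain, differed by 0.35. Of 22 genes of calcium sensing and transport 13 were positive and 9 negative, with a median of 0.0432. The calcium pump gene Atp2b2 was lowest at -0.45.

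Markers of the hormone cell types had list medians from -0.079 to 0.174. In these lists 0 members passed, where 0.0213% of all genes did. Over all genes 51.4% of the differences were positive. Gonadotroph markers were positive for 9 of 12 with a median of 0.173, and corticotroph and melanotroph markers for 9 of 11 with 0.174. Somatotroph markers were positive for 5 of 10 (median -0.0245), thyrotroph markers for 3 of 9 (-0.079) and lactotroph markers for 2 of 11 (-0.079). Without the array of control animals 3 and 4 the gonadotroph median was -0.10, and without that of peripubertal animals 3 and 4 the somatotroph median was 0.119. Of 13 stem and folliculostellate markers 9 were positive (median 0.151, and -0.00915 without the latter array). Aldh1a1, which makes retinoic acid, read 11.60, 11.81, 11.79 and 11.58 in control and 11.91, 12.11, 12.04 and 12.10 in peripubertal animals, without overlap (0.34, adjusted p = 1.00). In bulk tissue, fewer cells of a type and less RNA per cell cannot be told apart.

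Among supporting cells, endothelial markers were positive for 11 of 14 (median 0.129) and fibroblast markers for 7 of 11 (0.218). Without the array of control animals 3 and 4 these medians were -0.0703 and -0.0676. Col5a1, a fibrillar collagen gene, read 7.34, 7.51, 7.61 and 7.82 in control and 8.07, 8.08, 8.13 and 8.19 in peripubertal animals, again without overlap (0.55, SE 0.14, adjusted p = 0.557). Kcnj8 and Abcc9 encode the pore and the regulatory subunit of the potassium channel of pericytes. They differed by 0.45 (adjusted p = 0.831) and 0.38 (adjusted p = 0.934), and for both all peripubertal animals lay above all controls. Over all genes 9.24% had no overlap between the groups, in either direction. Pericyte markers were positive for 5 of 9 (median 0.102, and -0.117 without the array of control animals 3 and 4). The other pericyte markers named by p, Mcam and Rgs5, differed by -0.23 and -0.36. Posterior lobe markers were positive for 7 of 11 (median 0.0539) and myelin markers for 3 of 10 (-0.0857), and without the array of peripubertal animals 3 and 4 these medians were -0.0142 and 0.0156.

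Lists drawn around the genes of smallest p were chosen with those genes known. In TGF-beta, activin and BMP signalling 25 of 35 members were positive (median 0.121), and Zfyve9 was the only one of them past the threshold. Its neighbours by p in the list were Tgif2, Inha and Tgfb1, a ligand of the pathway, at 0.30 (adjusted p = 1.00). Among clathrin adaptors and early endosome genes 16 of 30 were positive with a median of 0.00871. The 4 smallest p-values were those of Zfyve9, Ap2b1, the endosomal GTPase Rab5c at -0.87 and the AP-1 subunit Ap1b1 at -0.27. Their differences were negative, as were those of 579 of the 881 genes with an unadjusted p under 0.05. Rab5c read 12.10, 12.08, 11.85 and 11.65 in control and 10.71, 11.34, 10.96 and 11.20 in peripubertal animals (adjusted p = 0.521). Ubiquitin and proteasome genes were positive for 12 of 28 (median -0.0381) and spliceosome genes for 20 of 29 (0.086), and Ube4a, Uchl3 and Prpf19 did not pass.

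Metabolic and stress lists also had 0 members past the threshold, beside 0.0213% of all genes. Glycolysis genes were positive for 18 of 22 (median 0.14), and the glucose transporter Slc2a3 had the smallest p (0.35, adjusted p = 1.00). All 22 intervals of this list lay within 1 log2 unit. Oxidative phosphorylation was positive for 15 of 26 (0.0309), cholesterol and fatty acid synthesis for 15 of 26 (0.0491), and cell cycle genes for 5 of 21 (-0.075, and 0.157 without the array of peripubertal animals 1 and 2). The unfolded protein response was positive for 16 of 21 (0.117), glucocorticoid-responsive genes for 11 of 16 (0.23), immediate early genes for 9 of 22 (-0.103) and estrogen-responsive genes for 7 of 13 (0.091). Without the array of controls 3 and 4 the medians were 0.0202 for immediate early, -0.066 for estrogen-responsive and -0.0355 for cholesterol and fatty acid genes. Genes of granins, prohormone processing and exocytosis were positive for 12 of 22 (0.0288). The glucocorticoid-responsive list was imprecise, with 6.25% of its intervals within 1 log2 unit. Mean levels relative to the 8-animal average cover the 10 members with 8 values. They were -0.824, 0.306, 0.902 and -0.658 in controls 1 to 4 and 0.0258, 0.0201, -0.0572 and 0.285 in peripubertal animals.

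The neutrophil, red cell, MHC, interferon and macrophage lists had the highest medians of the lists, and their levels were uneven between animals and arrays. Neutrophil markers were positive for 7 of 9 members (median 0.863). The mean level of the 7 members with 8 values, relative to the 8-animal average, was 2.72 in peripubertal animal 3 and 0.705 in control 2. It lay between -0.951 and -0.191 in the other 6. Mpo, a granule enzyme, read 11.15 in peripubertal animal 3 and at most 7.48 elsewhere. Ltf, encoding lactoferrin, read 12.24 in that animal, with 8.85 in control 2 as the next. Without the array of peripubertal animals 3 and 4 the median of the list was -0.325. Macrophage markers were positive for 12 of 14 (median 0.242). Without that array, which also removes the member Ctss (0.88), the median was -0.124.

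Interferon-response genes were positive for 21 of 23 (median 0.25) and MHC and antigen presentation genes for 17 of 20 (0.367). Their mean levels, for MHC over the 14 members with 8 values, were highest in peripubertal animal 4, at 0.62 for interferon and 0.852 for MHC. Peripubertal animal 3 followed with 0.13 and 0.19, and the other 6 ran from -0.191 to -0.0497 for interferon and from -0.279 to 0.00953 for MHC. Gbp2, an interferon-induced GTPase, read 11.80 in peripubertal animal 4 and 9.18 to 9.79 in the others. Stat2, a transcription factor of the interferon pathway, was more even, with 9.58, 10.02, 9.78 and 9.93 in control against 10.15, 10.48, 10.20 and 10.66 (0.55, adjusted p = 1.00). H2-DMa, which loads peptides on class II molecules, read 8.87, 8.85, 8.43 and 8.58 in control and 10.23, 9.49, 9.14 and 10.34 in peripubertal animals, all above the controls (1.12, SE 0.34, adjusted p = 0.770). The class II genes H2-Eb1 (0.93) and H2-Ab1 (1.05) and the class I light chain B2m (0.81) have peripubertal values in animals 3 and 4 only. Without that array the medians were -0.0105 for interferon and -0.0559 for MHC, but the MHC list then lacked H2-Eb1, H2-Ab1 and B2m. The MHC medians with and without the array are thus not over the same genes.

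Red cell genes were positive for 9 of 9 with a median of 0.768. The alpha globin gene Hba-a2 read 17.16 and 16.93 in controls 1 and 2, 15.04 and 15.48 in controls 3 and 4, and 17.25, 16.80, 17.97 and 16.79 in peripubertal animals. Controls 3 and 4 were the low samples, and the other controls lay within the peripubertal range. Without their array the median of the list was 0.0313, and with the files of the other deficient group it was -0.915. Blood left in the gland was not measured separately, and its part in these values was not tested. Lymphocyte markers were positive for 5 of 7 (median 0.028).

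**Figure D4:**
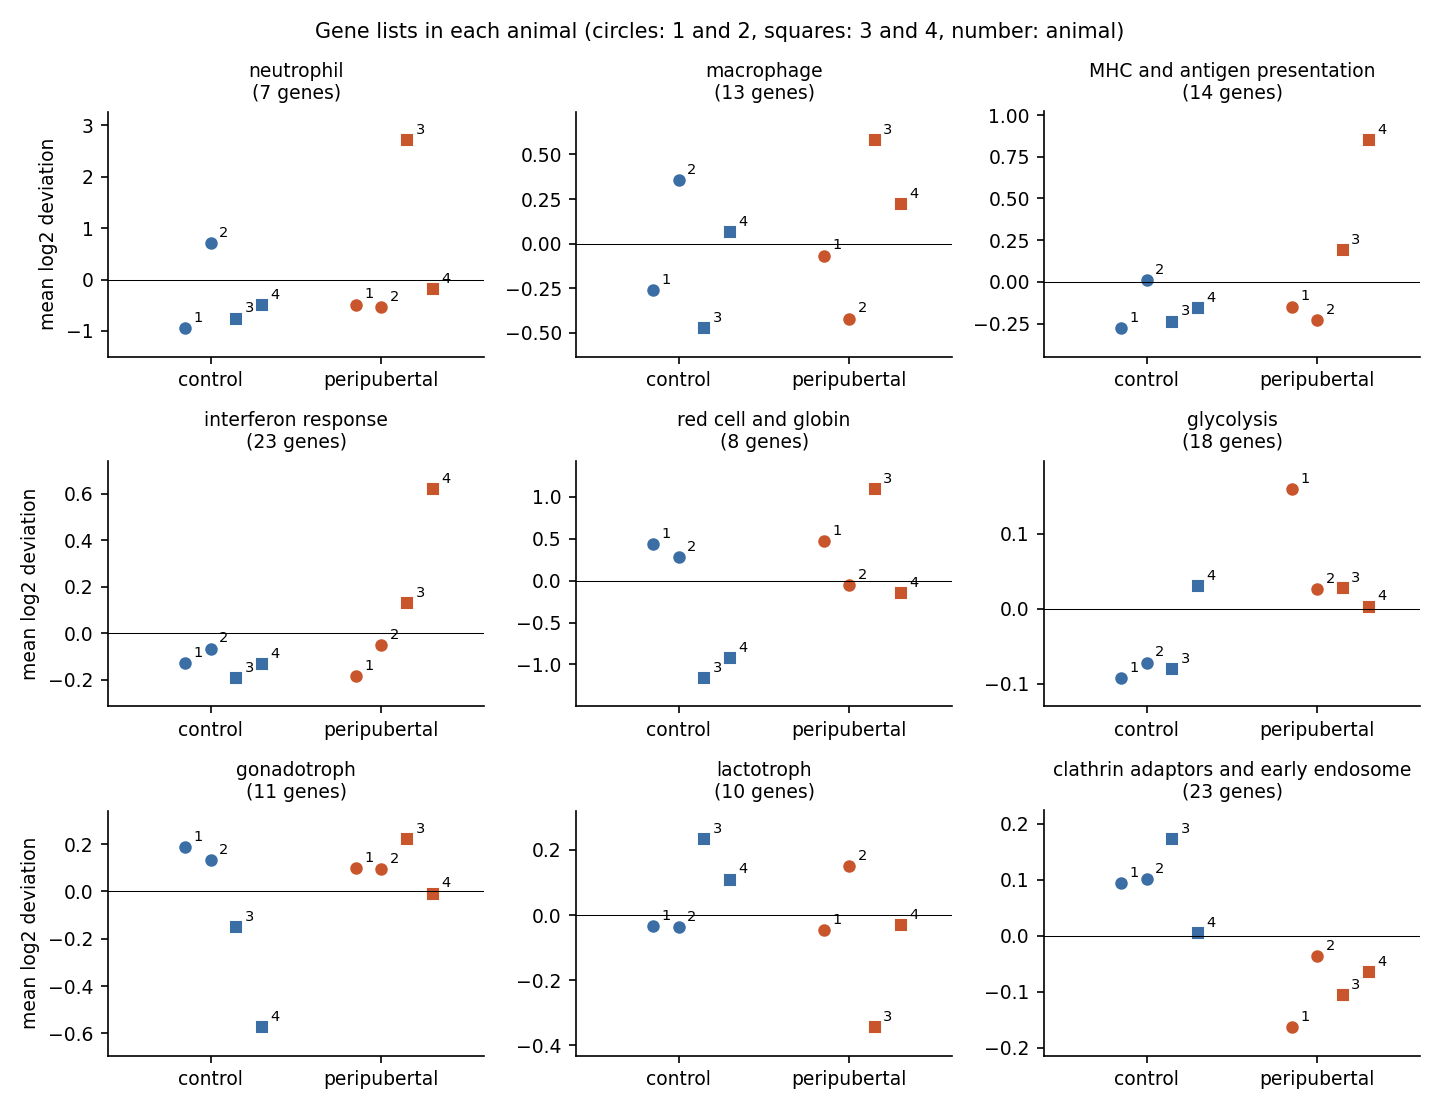
Mean log2 deviation of 9 gene lists from the average of the 8 animals (y axis) in each control and peripubertal animal (x axis), with the animal's number beside its point, circles for animals 1 and 2 and squares for 3 and 4. Peripubertal animal 3 is highest for neutrophil genes, animal 4 for interferon and MHC genes, and controls 3 and 4 are lowest for red cell genes. Only members with a value in all 8 animals are included.

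Most of the largest differences among bright genes also came from 1 array or 1 animal, with Ap2b1 (given above) and Ly6a as the exceptions. Of the 11157 named genes well above background in all 8 samples, the highest positive differences were those of Shisa2 at 1.81, Wfdc3 at 1.74, Lrrtm3 at 1.71 and Cacna1a at 1.58. Shisa2, an inhibitor of Wnt and FGF receptors, read 12.12 and 11.84 in peripubertal animals 3 and 4 and 8.29 to 8.59 in the other 6. Wfdc3, Lrrtm3, Tlnrd1 and Igfbp1 were also high in these 2 animals, and Ccdc42, Col14a1 and Fam163b in peripubertal animals 1 and 2. The Col14a1 difference was 1.35 on this probe and 0.0548 on another probe well above background in all 8. The probes named for Ccdc42 and Col14a1 lie close together on the array, at rows 412 and 414 of column 33. The part of this position in their values was not tested. Cacna1a, a calcium channel gene, read 5.88 in control 3 and 10.83 to 11.73 in the others. Its second probe, well above background in all 8 channels, differed between the groups by -0.427. Ly6a, an interferon-inducible surface antigen, read 9.22, 11.80, 9.36 and 10.78 in control and 11.66, 12.31, 9.95 and 12.42 in peripubertal animals, which overlap (1.30).

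In the other direction, Tmem201 (-1.89), Lmx1b (-1.74), Tti2 (-1.60), Rgl1 (-1.41), Dab1 (-1.28) and 4833411C07Rik (-1.27) were high in controls 3 and 4 only. Tmem201, of the inner nuclear membrane, read 12.37 and 11.33 there and 7.43 to 8.37 elsewhere, and its 3 other probes differed by -0.104, -0.0824 and 0.465. Other probes well above background in all 8 channels differed by -0.166 for Lmx1b, -0.0263 for Tti2, 0.289 for Rgl1 and -0.0401 for Dab1. Those of Lmx1b, Tti2 and Dab1 were dim, with group means from 7.46 to 7.64. The probes named for Tti2 and Rgl1 lie side by side on the array, at rows 183 and 182 of column 5. That of Tmem201 lies beside that of Cacna1a, at columns 61 and 62 of row 509. The part of these neighbouring positions in the values was not tested. Lepr, the leptin receptor, read 11.10, 10.36, 10.73 and 9.46 in control, 7.85 and 8.36 in peripubertal animals 1 and 2, and 10.32 and 9.81 in animals 3 and 4 (-1.33). Its 3 other probes were dim. Krtap19-4 followed the same pattern at -1.33. Pdia4, a protein disulfide isomerase of the endoplasmic reticulum, read 8.01 in peripubertal animal 1 and 11.22 to 12.23 in the other 7. All of these bright genes except Ap2b1 had an adjusted p of 1.00.

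**Figure D5:**
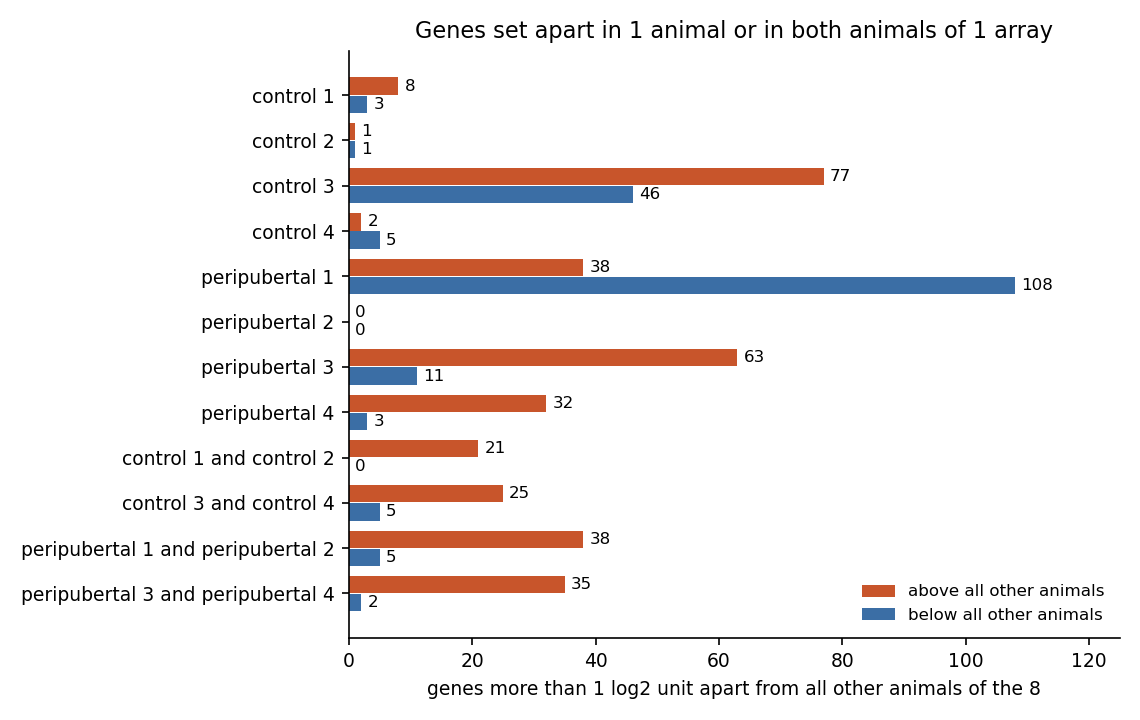
Number of genes (x axis) whose value in 1 animal, or in both animals of 1 array (y axis), lay more than 1 log2 unit above (orange) or below (blue) all other animals of the 8, out of 16439 genes with 8 values. Peripubertal animal 1 has the most below (108), control 3 the most above (77), and peripubertal animal 2 has none.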

How the data were processed

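The deposited scanner files hold raw intensity of each spot, its local background and quality marks. Per the file headers the software was Feature Extraction, version 11.0.1.1. The deposited value table gives log2 values whose column medians are 0, and it was used to check labels only. Of 44397 features per array, 1377 were controls and were left out. With limma 3.58.1 (R 4.3.3), background was corrected by normexp (offset 50), dyes by loess within arrays, and arrays scaled by Aquantile. Outlier spots were then left out, which left 4706 genes without a value on at least 1 array. Such genes were fitted on the samples they had. Spots of a probe were averaged, 24605 of 39429 probes were kept because at least 4 of 12 channels read well above background, and the brightest probe stood for its gene. Names come from a RefSeq table by accession (27324 probes), symbol (3518) or synonym (551), and 8036 were unmatched. Probe positions are those in the files (mm9), and no genome was used to realign them.

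The fit used all 12 samples, with group and dye as terms and array as a random block (correlation 0.342, 8 residual degrees of freedom, prior 3.37). P-values are two-sided and Benjamini-Hochberg adjusted over 18767 genes, with a threshold of 0.05. The median standard error was 0.187, and the number of arrays limits precision. The steps were tested on simulated data. Named are all genes past the threshold, the 20 of smallest p, the 10 largest differences each way among bright genes, Vdr, Rxra, Cyp24a1 and 7 hormone genes, and in each list the 4 genes of lowest p, except unsymbolled or predicted ones. Not every gene the rule takes is described, and some are not reported here. Lists have no test: their counts and medians stand beside those of all genes. A list median without an array leaves out members with no value left in a group. Mean levels of a list per animal cover only members with a value in all 8 samples. The samples, lists and named genes were chosen with earlier results of these data known. Replicate numbers were not used to pair animals. Correlations of deviations at equal numbers were low, at 0.0871, -0.137, 0.108 and 0.134 (median 0.0976). The medians were -0.00418 at other numbers in the same dye and -0.0182 in the other dye, so pairing by number was not established.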

Additional observations from a re-analysis of the deposited data

Results flagged for a closer look

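Among the genes named for their p, size or role, 1 had 1 animal far from the 3 others of its group by Dixon's ratio, the gap to the nearest animal over the whole range, which lay above the 95% critical value. Cacna1a, a calcium channel gene, had a ratio of 0.896 in control, where animal 3 read 5.88 and the others 10.83 to 11.41. A second Cacna1a probe, well above background in all 8 channels, read only 0.496 log2 units lower in that animal than in the mean of the 7 others. Between the groups this second probe differed by -0.427, against 1.58 on the first, so the probes disagreed in direction. In all, 95 groups of 4 values were checked, and chance alone puts about 1 in 20 beyond the limit.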

How the results depend on the processing

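The count of 4 genes was not stable. It was 0 with a normexp offset of 16, with the software's processed signals, with quantile scaling, with median centring, without the filter on dim probes, with probes well above background in all 12 channels, on array means (smallest adjusted p 0.699) and with outlier spots left out before scaling. Between 571 and 1643 genes had an unadjusted p under 0.05 in these fits. The fit with the replicate number as a block also gave 0 (901 at an unadjusted p under 0.05), although pairing by number was not established. The count was 20 when probes were averaged per gene (3 higher) and 20 without the array block (0 higher). It was 10 from only the 8 samples compared (7 higher, 2 shared with the 4) and 18 with the files of the other deficient group. Leaving out 1 animal gave 0 to 3: 1 without control 4, 3 without peripubertal 2 (0 shared) and 0 without any of the others. For this count, the settings chosen after seeing the data were the early removal of outlier spots and the removal of a whole array. The latter gave 23 without controls 1 and 2, 7 without controls 3 and 4, 36 without peripubertal 1 and 2 (32 higher) and 32 without peripubertal 3 and 4 (26 higher), where the remaining array of a group is assumed to vary like the others. The cause of these changes was not tested. Median centring moved the median of all genes to 0.14 (68.5% positive) and early removal of outliers to 0.135 (73.9%), so small differences are relative to the scaling. The count of intervals within 1 log2 unit was 26632 of 29791 genes without the filter, and stayed within 1.5 times the 16616 of the report elsewhere. As a share of the genes tested, 88.5% in the report, it was 89.4% without the filter. It was 71% with the software's processed signals, 72.2% with median centring and 92.2% without the array block. Of 1132 comparisons of 46 uncalled genes with an alternative, 33 changed sign, in 18 genes.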

Other observations

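Single animals were set apart by groups of genes, which were picked out after their values were seen and are given without a test. In peripubertal animal 4, 32 genes read more than 1 log2 unit above the 7 other animals. Among the 10 widest gaps were several GTPase genes known to be induced by interferon gamma. Gbp4 read 10.43 there and at most 7.43 elsewhere, Gbp11 10.99 and at most 8.08, Tgtp2 14.23 and at most 11.36, Igtp 12.40 and at most 10.68, and Irgm2 11.99 and at most 10.37. A second Gbp2b probe, well above background in all 8 channels, read 1.84 higher in this animal than in the mean of the others. In peripubertal animal 3, 63 genes were set apart upwards. Ngp, encoding a granule protein of neutrophils, read 11.92 there and at most 9.13 elsewhere, Chil3, a chitinase-like gene, 12.46 and at most 10.07, Ctsg, encoding cathepsin G, 9.82 and at most 7.84, and Hp, encoding haptoglobin, 11.88 and at most 10.08. For Hp and S100a8 control 2 came second, with S100a8 at 14.69 in peripubertal animal 3 and 12.80 in control 2.

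Control 3 stood apart in both directions, with 77 genes above and 46 below the other 7 animals. Below were Gal, encoding the peptide galanin, at 14.26 against at least 16.35 elsewhere, Kiss1, encoding kisspeptin, at 9.37 against at least 11.32, and Pcsk6, a proprotein convertase, at 13.33 against at least 14.84. A second Kiss1 probe was 2.0 lower in this animal than in the mean of the others. Above was Sphk1, a sphingosine kinase gene, at 11.31 against at most 9.76. Its second probe read 1.52 higher. Peripubertal animal 1 had the most genes below, 108, among them Ubfd1 at 8.29 against at least 12.28, Snd1 at 8.43 against at least 10.98 and Syt4, a synaptotagmin, at 9.82 against at least 12.05. Here the second probe of Ubfd1 differed by 0.0264 and that of Ewsr1 by -0.251, so the probes of these genes did not move together.

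Both animals of 1 array stood apart together for 21 to 38 genes upwards per array and 0 to 5 downwards. The widest gap was that of Sgo1, a cohesin protector, which read 18.79 and 17.53 in peripubertal animals 3 and 4 and at most 7.35 in the other 6. Sgo1 has 0 other probes, so this gap rests on 1 probe on 1 array and could not be checked against another.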
